A study of Mus musculus with 6 samples.

Results

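The 10 genes described here are the transcription factor gene Nfe2l2, its repressor gene Keap1, and 8 genes of antioxidant defence: Hmox1, Nqo1, Gclc, Gclm, Srxn1, Prdx1, Txn1 and G6pdx. They were chosen by name as core genes of the Nrf2 pathway, and each row of the deposited gene tables whose name matched was taken. These were 10 of 23698 rows, and none was a row that joins several gene names. All 10 were among the 9862 genes that passed the filters for translational efficiency, which required an RNA-seq RPKM above 1 in both libraries, a base mean above 25 and at least some footprints on the coding sequence (CDS).

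The data came from 1 ribosome profiling library, which samples mRNA fragments protected by ribosomes, and from 2 short-read RNA-seq libraries. All 3 libraries were made from cultured mouse squamous cell carcinoma cells (SCCc) of the genotype HrasG12V; Tgfbr2 fl/fl KO, labelled as primary keratinocytes of P0 back skin at passage 10 to 15. The cells belong to 1 previously made line, and nothing in the labels says whether the 2 RNA-seq replicates were grown as separate cultures. Every value therefore describes 1 condition, and no group was compared with another.

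Nrf2, the protein made from Nfe2l2, is a basic leucine zipper transcription factor. Keap1 binds it in the cytoplasm and presents it to a Cul3 ubiquitin ligase, so that Nrf2 is degraded in unstressed cells, and oxidants or electrophiles that modify Keap1 let Nrf2 accumulate. With a small Maf partner Nrf2 then binds the antioxidant response element and raises genes for glutathione synthesis, thioredoxin recycling, quinone reduction, haem breakdown and NADPH supply, a programme known in epidermis for its role against environmental oxidants.

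The antioxidant response element is shown because it is the DNA feature by which these genes are usually grouped. RefSeq promoter sequences (GRCm38.p6), each covering 250 bases before to 50 bases after a start, were matched for 8 of the 10 genes, and not for Gclc and Hmox1. The letters TGACNNNGC, searched on both strands, were present in 5 of these 8 windows, and in 4071 of all 32851 promoter windows (12.4%). In the lines that follow, capitals mark the match, read on the strand that carries TGAC.
Nfe2l2: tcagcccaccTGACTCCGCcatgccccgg
Srxn1: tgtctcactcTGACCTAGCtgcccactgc
Gclm: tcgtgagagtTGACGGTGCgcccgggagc
Prdx1: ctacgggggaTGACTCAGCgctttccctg
G6pdx: gcgtgtgcttTGACTGAGCtgacccgcct

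The Nfe2l2 sequence lies at chr2:75704885-75704913 on the minus strand, and its match covers bases -240 to -232 from the start. That of Srxn1 lies at chr2:152105542-152105570 on the minus strand, where the match covers bases 29 to 37 after the start and so falls in the first transcribed bases. Those of Gclm at chr3:122245413-122245441 and of Prdx1 at chr4:116685456-116685484 are also read on the minus strand, with matches at bases -134 to -126 and -133 to -125. The G6pdx sequence lies at chrX:74428919-74428947 on the plus strand, with its match at bases -57 to -49. These positions count from the RefSeq start, which for Srxn1, Prdx1 and G6pdx lies inside the gene as GENCODE gives it. The G6pdx match falls within the annotated gene, and the Prdx1 match still lies before it. The AP-1 letters TGANTCA, held by 7.81% of all windows, overlap the Prdx1 match and no other match shown. A match describes letters in a window and not a site that a factor was shown to use.

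The ribosome profiling library held 3549555 estimated counts on exons, of which 3198469 lay on the CDS. The RNA-seq libraries held 10707930 counts in replicate 1 and 14003713 in replicate 2. Levels are given as RPKM, that is, counts scaled by the counted length and by the exon counts of the library, over exons for RNA-seq and over the CDS for footprints. Intervals for footprints are exact 95% Poisson intervals and cover counting error only, since PCR copies without molecular identifiers are not independent molecules. Between the RNA-seq replicates, log2 ratios of passing genes had an SD of 0.20.

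The cell type was checked first. All 7 keratinocyte markers were above 1 RPKM in both RNA-seq libraries, with summed levels of 13613 and 15650 RPKM, and Krt5, a keratin of basal epidermal cells, led with 7965 and 9483 RPKM. Fibroblast markers summed to 8.99 and 14.9 RPKM, with 3 of 6 above 1 RPKM in both libraries and Col3a1 highest at 3.89 and 5.49 RPKM. Of 4 melanocyte markers only Pmel passed 1 RPKM, at 5.03 and 5.19 RPKM, out of sums of 5.43 and 5.50 RPKM. None of 4 immune markers (sums 1.09 and 3.43 RPKM, Tyrobp highest at 0.825 and 2.26, Cd3e at 0 in both) and none of 3 endothelial markers (sums 0.505 and 0.591 RPKM, Kdr highest at 0.345 and 0.321) was above 1 RPKM in both. Keratinocyte markers thus made up nearly all of the marker signal. The part of the other cells in the levels given here was not tested.

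The modified genes were both measured. Hras, the GTPase gene that carries the activating change, had 1179 and 1619 RNA-seq counts (48.5 and 50.9 RPKM). Tgfbr2, which encodes the type II TGF-beta receptor, still had 3150 and 3958 RNA-seq counts (61.4 and 59.0 RPKM) and 193 footprints on its CDS. A count per gene shows neither a substituted base nor a missing exon, so these values check neither allele.

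On the RNA scale the 10 genes were mostly abundant. Their median was 69.0 RPKM against 15.3 RPKM for all passing genes, and 9 of 10 lay above that median. Footprints gave the same count, with a median of 63.1 RPKM for the 10 genes against 19.1 RPKM for all passing genes and 9 of 10 above it. Nqo1 was the exception on both scales. The highest and lowest of the 10 differed by 26.8-fold in RNA and by 309-fold in footprints. The RNA range was 49.9-fold when counted over the CDS. Without Txn1 and Prdx1, the other 8 genes spanned 24.0-fold in footprints and 21.1-fold in RNA over exons. In bulk libraries, fewer cells that use a gene and less RNA per cell cannot be told apart.

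**Figure D1:**
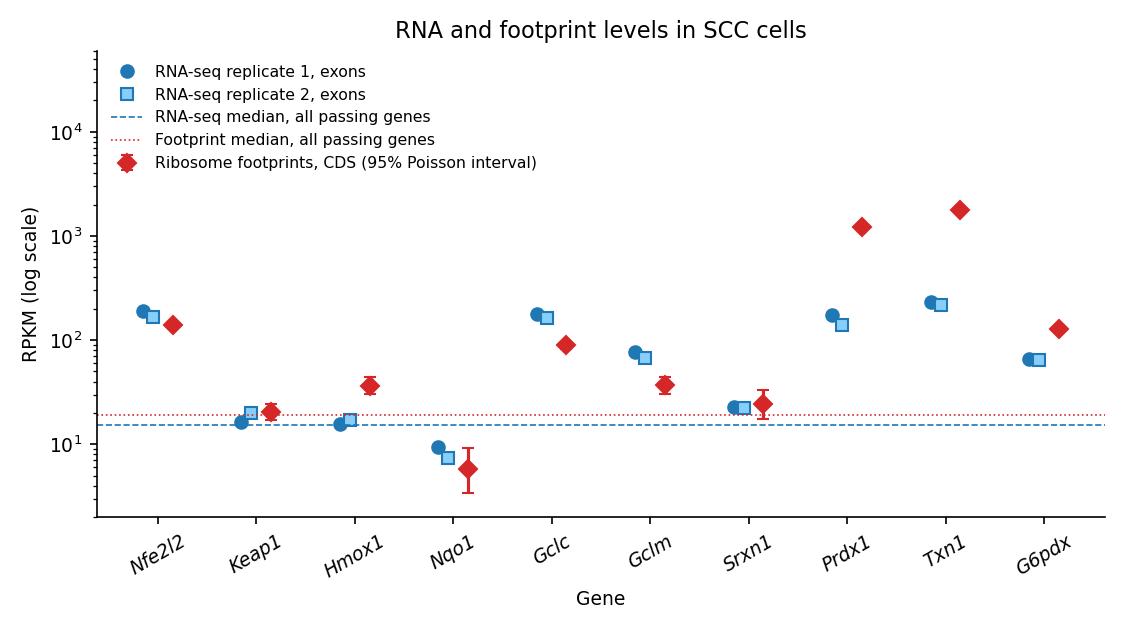
Levels of the 10 genes in RPKM on a log axis, with RNA-seq replicates 1 and 2 as blue circles and squares and footprints on the CDS as red diamonds with exact 95% Poisson intervals; the dashed blue and dotted red lines are the medians of all passing genes (15.3 and 19.1 RPKM). Footprints of Prdx1 (1229) and Txn1 (1790) stand far above the RNA levels of the same genes, and those of Gclc and Gclm lie below theirs.

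Translational efficiency was taken as footprint RPKM on the CDS over mean RNA-seq RPKM on exons, on the log2 scale and relative to the median of passing genes, which is 0. Its error is given as the SD over the 2 RNA-seq replicates, since the footprint side has 1 library. This SD leaves out the counting error of the footprints, which can be the larger where footprints are few. Of the 10 genes, 2 were above 1 (Txn1 and Prdx1), where 20.7% of all passing genes were, and 2 were below -1 (Gclc and Gclm), where 21.1% of all passing genes were. The other 6 lay between these limits. The shares on both sides are close to those of all genes, and so is the spread, with an SD of 1.46 over the 10 genes and 1.45 over all passing genes. The median of the 10 was -0.19. With RNA-seq counted over the CDS in place of exons, it was -0.0093.

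**Figure D2:**
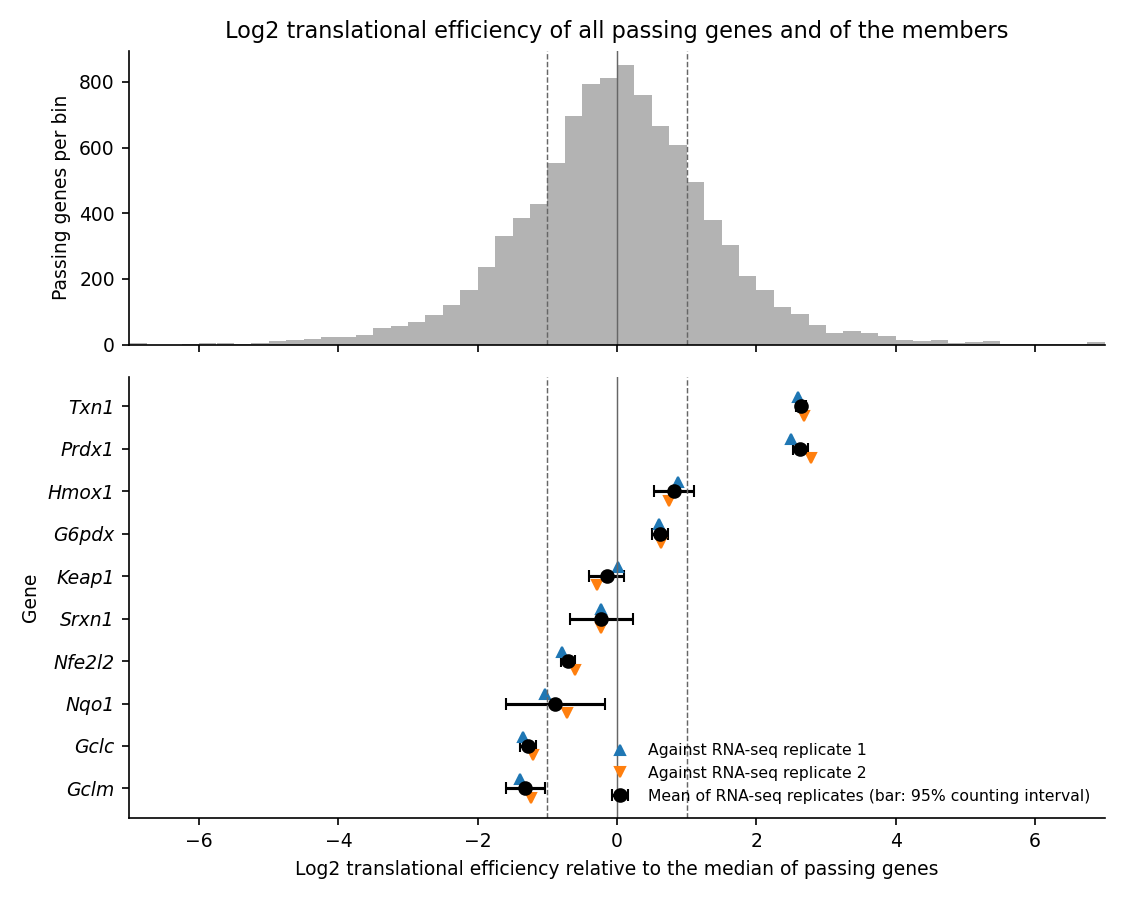
Log2 translational efficiency relative to the median of passing genes, with all 9862 genes as a histogram (top; values beyond the axis are put in the end bins) and the 10 genes as black points with 95% counting intervals as bars (bottom); triangles give the value against each RNA-seq replicate, and dashed lines mark -1 and 1. Txn1 (2.64) and Prdx1 (2.63) stand apart on the right and Gclc (-1.28) and Gclm (-1.32) lie past -1 on the left.

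Nfe2l2 (chr2:75675513-75704641, minus strand, GRCm38) was among the most abundant transcripts of the set. It had 191 and 165 RPKM in RNA-seq replicates 1 and 2, from 5062 and 5720 counts, which placed its mean of 178 RPKM at percentile 96.6 of passing genes. Its CDS held 885 footprints, or 139 RPKM (130 to 149), at percentile 88.6. A transcript in the top few percent by RNA was therefore less far up by footprints. Translational efficiency of Nfe2l2 was -0.70 ± 0.14 (SD, n = 2), at percentile 27.8. Without division by length it was -0.15, and on that scale it lay above the value of Keap1 (-0.39).

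Keap1 (chr9:21229730-21239361, minus strand), the adaptor that holds Nrf2 back, was much less abundant. RNA-seq gave 16.2 and 19.8 RPKM, from 776 and 1238 counts, and 137 footprints gave 20.6 RPKM (17.3 to 24.4). These are mid-range levels, at percentiles 55.5 for RNA and 51.9 for footprints. The Keap1 translational efficiency of -0.15 ± 0.21 lay within the replicate spread of the median of passing genes. This was lost without replicate 1 (-0.30), with RNA-seq counted over the CDS (-0.50), without division by length (-0.39) and with at least 100 counts in every library (-0.54). Nfe2l2 mRNA exceeded Keap1 mRNA per length by 9.91-fold on the mean, by 11.8-fold in replicate 1 and by 8.36-fold in replicate 2. In footprints the factor was 6.76 (95% interval 5.65 to 8.09). Nfe2l2 thus exceeded its repressor on both scales and in each RNA-seq library. With RNA-seq counted over the CDS the factor was 7.41 on the mean, 9.17 in replicate 1 and 6.08 in replicate 2. This range overlaps the footprint interval, whereas the factors over exons all lay above it. A difference between RNA and footprints was thus seen only against RNA over exons.

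Over the 3 libraries, the genes nearest to Nfe2l2 by Euclidean distance of log2 RPKM, of 4828 with at least 100 counts in every library, were Erp29 (0.23), Hif1a (0.30) and Map2k2 (0.32). Erp29, a chaperone of the endoplasmic reticulum, had 164 and 168 RPKM in RNA-seq, Hif1a, the oxygen-regulated transcription factor gene, 201 and 179, and Map2k2, a kinase gene downstream of Ras, 171 and 197. All of them share the level of Nfe2l2 in these libraries, and this says nothing about shared function or control.

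Gclc (chr9:77754535-77794485, plus strand) and Gclm (chr3:122245557-122270732, plus strand) encode the catalytic and the modifier subunit of glutamate-cysteine ligase, the rate-limiting enzyme of glutathione synthesis. Gclc RNA stood at 180 and 162 RPKM, from 6601 and 7778 counts, at percentile 96.5. Gclm RNA stood at 76.7 and 67.6 RPKM, from 1702 and 1961 counts, at percentile 89.6. Both subunit mRNAs were thus in the upper part of the range, with Gclc the higher in each replicate.

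Footprints of this pair were fewer than their RNA levels alone would place them. Gclc had 607 footprints, or 89.5 RPKM (82.5 to 96.9), at percentile 83.1, and Gclm had 107, or 36.7 RPKM (30.1 to 44.4), at percentile 66.0. The log2 translational efficiency was -1.28 ± 0.09 for Gclc and -1.32 ± 0.12 for Gclm, the lowest values of the 10 on this scale. Without division by length Srxn1 was lower than both, at -1.78. Against RNA over exons they differed by less than their replicate spread. The ratio of Gclc to Gclm was 2.37 in RNA, with a value of 2.34 in replicate 1, and 2.44 in footprints (1.98 to 2.99). With RNA-seq counted over the CDS the RNA ratio was 1.63, below the footprint interval, so the 2 ratios were alike only against RNA over exons. On that scale translational efficiency was -1.89 for Gclm and -1.32 for Gclc, and without division by length it was -1.64 and -1.11, and the subunits then differed by more than the replicate spread.

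Txn1 (chr4:57943373-57956411, minus strand) encodes cytosolic thioredoxin, the small protein that reduces disulfides and is itself recycled with NADPH. It had the highest RNA level of the 10, at 234 and 218 RPKM from 2628 and 3212 counts. Its 2002 footprints gave 1790 RPKM (1713 to 1871), at percentile 98.8 of passing genes. Txn1 alone held 35.5% of the 5631 footprints on the CDS of the 10 genes. On the log2 scale its translational efficiency was 2.64 ± 0.06 and came to 1.75 with RNA-seq counted over the CDS and to 1.92 without division by length, still above 1. A processed pseudogene, Txn-ps1 on chromosome 1, is annotated but is no row of the tables. How far reads are shared with it was not tested, which leaves the Txn1 values uncertain.

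Prdx1 (chr4:116685544-116700822, plus strand) encodes a peroxiredoxin that removes hydrogen peroxide and is reduced by thioredoxin. It had 173 and 140 RPKM in RNA-seq, from 892 and 946 counts, and 1021 footprints, or 1229 RPKM (1155 to 1307). Its log2 translational efficiency of 2.63 ± 0.20 did not differ from that of Txn1 beyond the replicate spread. With RNA-seq counted over the CDS it was 2.24, and on that scale, as without division by length, Prdx1 lay above Txn1 by more than that spread. Only 234 nt of its CDS were counted, 39.2% of the annotated length, so the value describes that segment. For Gclm the counted share was 95.9%, for G6pdx 99.8%, and for the rest 100%. Txn1 exceeded Prdx1 by 1.44-fold in RNA over exons, by 2.04-fold in RNA over the CDS and by 1.46-fold (1.35 to 1.57) in footprints. Together they held 53.7% of the footprints of the 10 genes.

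Srxn1 (chr2:152105516-152111376, plus strand) encodes sulfiredoxin, which restores peroxiredoxins that have been over-oxidised. Its RNA level was 22.8 and 22.5 RPKM, from 672 and 868 counts, and 40.6 footprints gave 24.6 RPKM (17.6 to 33.4). Srxn1 was thus far below Prdx1 in both RNA and footprints. Translational efficiency was -0.22, and here the counting error of 0.23 exceeded the SD over replicates of 0.00084. Of the set, Srxn1 had the value that ranged most widely between scales. It was 0.48 with RNA-seq counted over the CDS and -1.78 without division by length. Most of its RNA-seq counts lay outside the CDS, and how far this accounts for the range was not tested.

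Hmox1 (chr8:75093621-75100589, plus strand), which encodes the inducible haem oxygenase, had mid-range RNA at 15.8 and 17.1 RPKM, from 265 and 375 counts. Its 113 footprints gave 36.6 RPKM (30.2 to 44.0), at percentile 66.0. By footprints it equalled Gclm (36.7 RPKM), although Gclm mRNA was several times as abundant per length. The translational efficiency of Hmox1 was 0.81 ± 0.09, at percentile 74.8. Its counting error of 0.15 exceeded that SD, and the footprint counting interval of 0.53 to 1.08 included 1.

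Nqo1 (chr8:107388225-107403206, minus strand), which encodes the quinone reductase often used as a readout of Nrf2 activity, had the lowest RNA and footprint levels of the 10. RNA-seq gave 9.42 and 7.46 RPKM, from 157 and 162 counts, at percentile 30.5. On its CDS 16.9 footprints were counted, or 5.79 RPKM (3.37 to 9.29), at percentile 20.9. Its log2 translational efficiency of -0.89 ± 0.23 had a counting error of 0.36, and against replicate 1 alone it was -1.04. At this depth its side of -1 could not be decided.

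G6pdx (chrX:74409483-74429194, minus strand) encodes glucose-6-phosphate dehydrogenase, which supplies NADPH to the glutathione and thioredoxin systems. RNA-seq replicates were close, at 66.5 and 65.0 RPKM from 1864 and 2382 counts. Its 702 footprints gave 128 RPKM (119 to 138). RNA over exons just below that of Gclm thus went with footprints similar to those of Nfe2l2, while RNA over the CDS was 80.2 RPKM for G6pdx and 132 RPKM for Gclm. The log2 translational efficiency was 0.62 ± 0.01, at percentile 69.7. G6pd2, an intronless copy named after its values were seen, had 24.2 and 35.6 RNA-seq counts. How far reads are shared between the copies was not tested, which leaves the values of each uncertain.

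In order of mean RNA-seq RPKM, Txn1 came first, then Nfe2l2, Gclc and Prdx1, whose replicate values overlapped from each to the next. Gclm, G6pdx and Srxn1 followed without overlap, then Keap1 and Hmox1, which overlapped, and Nqo1 last. By footprint RPKM the order was Txn1, Prdx1, Nfe2l2, G6pdx, Gclc, Gclm, Hmox1, Srxn1, Keap1 and Nqo1. Neighbours with overlapping intervals in it were Nfe2l2 with G6pdx and each step from Gclm to Keap1. By translational efficiency against RNA over exons, Txn1 and Prdx1 overlapped at the top, Hmox1 and G6pdx came next, and from Keap1 down through Srxn1, Nfe2l2, Nqo1 and Gclc to Gclm each neighbour overlapped the next when SD and counting error were combined. From RNA over exons to footprints Prdx1, G6pdx and Hmox1 each moved up 2 places, and Gclc moved down 2. From RNA over the CDS, Prdx1 kept its place. On that scale Nfe2l2, G6pdx, Hmox1 and Srxn1 moved up, and Gclc, Gclm and Keap1 moved down.

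The RNA level of each gene depended on which part of the transcript was counted. Counted over the CDS alone, mean RNA-seq levels were 515 RPKM for Txn1, 252 for Prdx1, 216 for Gclc and 209 for Nfe2l2. Gclm rose to 132 RPKM and Keap1 to 28.2 RPKM on this scale, and Srxn1 came to 17.0 RPKM against 22.7 RPKM over exons. Srxn1 was the only one of the 10 with a lower level over the CDS than over exons. Txn1 kept the highest and Nqo1, at 10.3 RPKM, the lowest level, and Prdx1 moved ahead of Nfe2l2 and Gclc.

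The counted regions also differ from the annotated ones in some of these genes. For Keap1, 1623 nt of 5′UTR were counted, more than the 1104 nt of its longest annotated 5′UTR and its annotation holds 5 coding transcripts. For Prdx1, 52 nt were counted, less than the 102 nt of its shortest annotated 5′UTR. Of 6 genes with 1 annotated coding transcript, the counted 5′UTR equalled the annotated one in Nfe2l2, Gclc, Srxn1 and Txn1, and differed slightly in Hmox1 (132 nt counted, 129 nt annotated) and Nqo1 (133 and 134 nt).

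The position of counts along the transcripts was compared next. Over all passing genes 4.95% of footprints lay on the 5′UTR and 1.81% on the 3′UTR. The 10 genes spread widely around the first share. By their own 5′UTR share of footprints, Txn1 stood at percentile 87.3 of 9419 genes and Prdx1 at percentile 83.3. Txn1 had 426 footprints on 201 nt of 5′UTR, or 17.3% of its footprints (Wilson 95% interval 15.9 to 18.8). In RNA-seq 24.8% and 25.6% of Txn1 counts lay there, so the share of its footprints there was below the share of its RNA. Per length, footprints on this segment reached 598 RPKM against 302 and 293 RPKM in RNA-seq.

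Prdx1 and Gclc differed from Txn1 in this respect. Prdx1 had 171 footprints on 52 nt of counted 5′UTR, 14.4% of its footprints (12.5 to 16.5), and RNA-seq placed 0.962% and 1.27% of its counts there, from 8.57 and 12.0 counts. Gclc had 55.6 footprints on 275 nt of 5′UTR, 8.35% of its footprints (6.48 to 10.7), against 4.50 and 13.0 RNA-seq counts, or 0.0682% and 0.168%. In both genes the 5′UTR thus held many footprints and very few RNA-seq counts in each replicate. RNA-seq counts on the 5′UTR were also near 0 in Gclm (0 and 1.79) and Srxn1 (0 and 1.88), where footprints there were few or absent. Where on the 5′UTR these footprints lay cannot be told from counts per region.

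**Figure D3:**
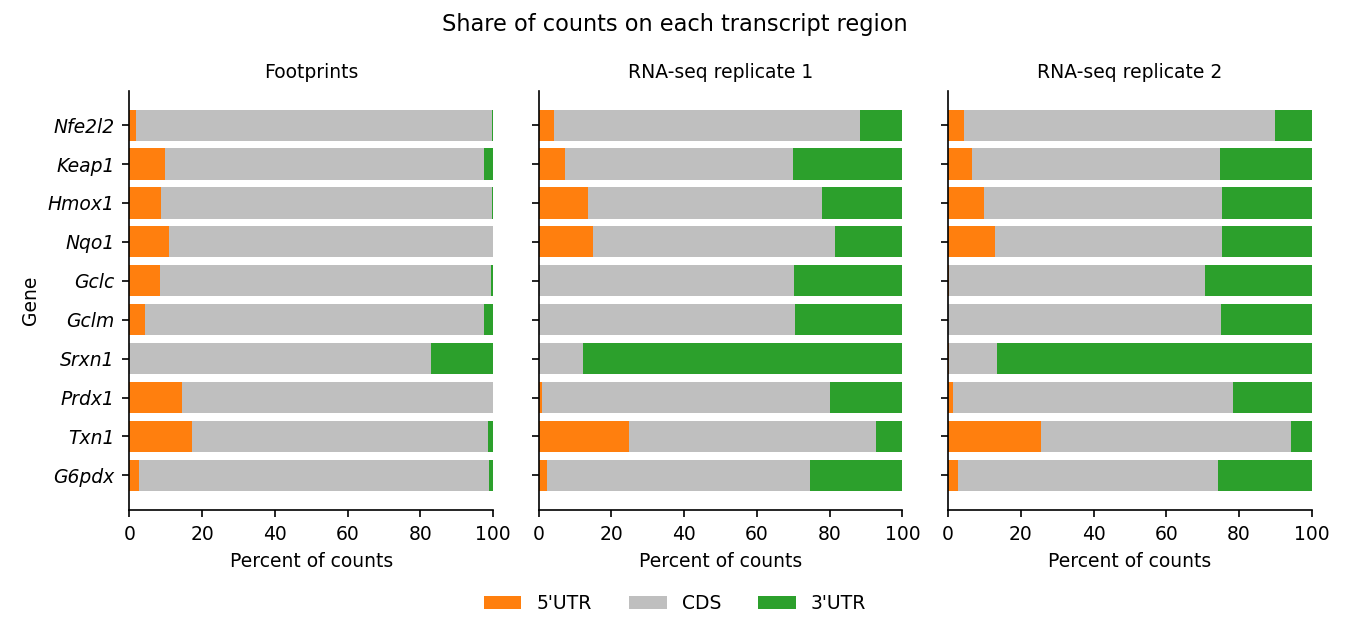
Share of counts on the 5′UTR (orange), CDS (grey) and 3′UTR (green) of each gene, in percent of the counts on the 3 regions, for footprints and for each RNA-seq replicate. The CDS holds most footprints in every gene, Txn1 has a large 5′UTR share in all 3 libraries (17.3%, 24.8% and 25.6%), and Srxn1 has most of its RNA-seq counts on the 3′UTR (87.9% and 86.4%).

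In the remaining genes at most 18.8 footprints each lay on the 5′UTR, although some shares were as large as that of Gclc. Keap1 had 15.4 on 1623 nt (9.88%, 6.12 to 15.6) and Hmox1 10.8 on 132 nt (8.71%, 4.90 to 15.0). Nfe2l2 had 15.5 on 233 nt (1.71%) and G6pdx 18.8 on 347 nt (2.57%). Nqo1 had 2.09, with a share between 3.16% and 32.0%, and Gclm a share of 4.35% (1.87 to 9.78), too few counts to rank them. By this share Gclc stood at percentile 71.0 of 9419 genes, beside Hmox1 at 72.0 and Keap1 at 74.8. Srxn1 had 0, and a count of 0 allows up to 3 counts as a one-sided limit. Prdx1 aside, whose counted 5′UTR is shorter than 60 nt, 0 of 9 genes held more footprints per length on the 5′UTR than over the CDS. Of the 7445 genes compared in this way, 17.4% did. The ratio of densities was 0.765 in Nqo1, 0.637 in Gclc, 0.628 in Hmox1 and 0.334 in Txn1, and the other values were 0.134 (Nfe2l2) or lower.

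Srxn1 stood out at the other end of the transcript. Of its RNA-seq counts 87.9% and 86.4% lay on a 3′UTR of 2125 nt. Its RNA density was higher on the 3′UTR than on the CDS, by 0.59 on the log2 scale, at percentile 96.8 of 9498 genes whose median was -0.69. Of its 49.0 footprints, 8.37 (17.1%) lay on the 3′UTR. Txn1 was the opposite case, with an RNA density on the 3′UTR below that on the CDS by a log2 ratio of -4.16, so the exon length counts 535 nt that carried few reads.

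The wider antioxidant and Nrf2 network was described by 52 further genes in 6 lists, of which 49 passed. Translational efficiency was above 1 in 15 of the 49 and below -1 in 3, with a median of 0.49, against 20.7% and 21.1% of all passing genes and a median of 0. All values of these lists are against RNA over exons. They were not computed with RNA-seq counted over the CDS or without division by length.

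**Figure D4:**
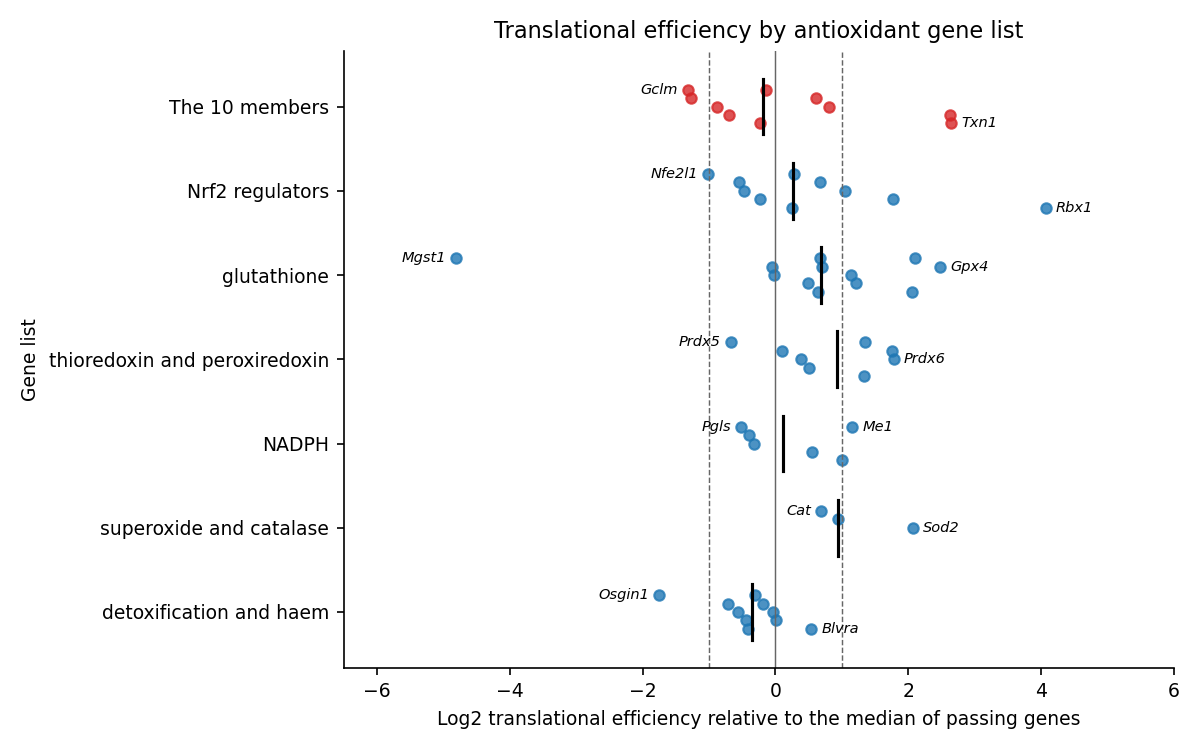
Log2 translational efficiency of the 10 genes (red) and of the passing genes in 6 wider lists (blue), with the median of each list as a black bar and dashed lines at -1 and 1; vertical offsets within a list only separate the points. The highest and lowest gene of each list are named, and list medians run from -0.35 to 0.95.

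Among 10 regulators of Nrf2, all of which passed, 3 were above 1 and 1 below -1. Without replicate 2 these counts were 2 and 0, as Gsk3b and Nfe2l1 lay close to the limits. Cul3, the scaffold of the ligase that Keap1 recruits, had 74.9 and 62.4 RPKM of RNA and a translational efficiency of -0.47 ± 0.17. Rbx1, the RING subunit of the same ligase, had 19.8 and 18.3 RPKM and a value of 4.08 ± 0.07, with 45.8% of its annotated CDS counted. Keap1 RNA was thus near that of Rbx1 and below that of Cul3. The small Maf partners Mafg (17.3 and 19.5 RPKM, 0.24 ± 0.13) and Mafk (11.1 and 12.9 RPKM, 0.27 ± 0.16) and the competing repressor Bach1 (23.7 and 22.7 RPKM, -0.54 ± 0.03) were all far below Nfe2l2 in RNA. Maff, the other small Maf of the list, named after its values were seen, had 4.62 and 4.30 RPKM and a value of 1.77 ± 0.06. That value rests on 32.1 footprints, with a counting interval of 1.23 to 2.27. Sqstm1, the autophagy adaptor that can sequester Keap1, was the most abundant of the list at 218 and 231 RPKM, and Nfe2l1, a relative of Nfe2l2, had the lowest efficiency at -1.02 ± 0.08.

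Of 13 glutathione genes 12 passed, with 5 above 1, 1 below -1 and a median of 0.69. Slc7a11, the cystine importer that feeds glutathione synthesis, had 20.4 and 14.4 RPKM of RNA, 508 footprints and a translational efficiency of 2.11 ± 0.34. Against RNA over exons, the importer and the ligase subunits Gclc and Gclm thus lay on opposite sides of the median. For the importer no other scale was computed. Gsto1, a glutathione transferase, was the most abundant, with 1734 and 1840 RPKM. Gpx4, the lipid peroxide reductase, was highest at 2.48 ± 0.15 with 58.7% of its CDS counted. Mgst1, a membrane-bound transferase, was lowest at -4.80 on 1.00 footprints, which leaves an interval of -10.11 to -2.32 from counting alone.

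Of 9 thioredoxin and peroxiredoxin genes 8 passed, with 4 above 1, none below -1 and a median of 0.93. Txnrd1, the reductase that recycles thioredoxin, had 26.8 and 25.1 RPKM of RNA, 532 footprints and a translational efficiency of 1.34 ± 0.06. Prdx6 was highest in the list at 1.78 ± 0.03, and Prdx5, the most abundant at 592 and 626 RPKM, was lowest at -0.67 ± 0.07. Against RNA over exons no passing gene of this list reached the values of Txn1 and Prdx1, and the list was not compared with them on other scales.

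The 6 NADPH genes all passed, with 2 above 1 (1 without replicate 1, as Pgd lay at 1.00), none below -1 and a median of 0.12. Me1, malic enzyme, was highest at 1.16 ± 0.18, Pgls, which follows G6pdx in the pentose phosphate pathway, was lowest at -0.52 ± 0.29, and Tkt was the most abundant at 315 and 339 RPKM. G6pdx lay within their range. Among 3 genes against superoxide and hydrogen peroxide, 1 was above 1, or 2 without replicate 2, as Sod1 lay at 0.95. Here mitochondrial Sod2 had 2.07 ± 0.04, catalase (Cat) the lowest value at 0.69 ± 0.02, and Sod1 the most RNA at 195 and 238 RPKM.

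Of 11 genes of detoxification and haem metabolism 10 passed, with none above 1, 1 below -1 and a median of -0.35. Blvra, a biliverdin reductase that acts after Hmox1, was highest at 0.54 ± 0.01, with a footprint counting interval of 0.32 to 0.75. This interval overlaps that of Hmox1 (0.53 to 1.08), so the order of these 2 genes could not be decided. Osgin1, a stress-induced growth inhibitor, was lowest at -1.75 ± 0.04 on 46.1 footprints, with a counting interval of -2.20 to -1.33. Ephx1, an epoxide hydrolase, was the most abundant at 144 and 153 RPKM. Nqo1, which shares the detoxification role, lay between the values of Osgin1 and Blvra. How these levels compare with wild-type keratinocytes was not analysed here.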

How the data were processed

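Ribosome profiling and RNA-seq of SCCc were used. The authors trimmed reads with TrimGalore, used Bowtie2 (2.4.1) to discard footprint reads from ribosomal, mitochondrial and transfer RNA, aligned to GRCm38 with STAR (2.6.1) and counted gene regions with Plastid. The estimated counts deposited by the authors need not be whole and are not normalised. The RPKM deposited by the authors use a library total of which the exon counts are 1.75% (footprints), 21.1% and 21.3% (RNA-seq), and served only in an alternative filter. RPKM was recomputed from the sum of exon counts. Expected counts were rounded to whole numbers for DESeq2 (1.42.0) size factors and the base mean. The annotation release used for counting is not given in the sources used here. Positions and annotated CDS came from GENCODE for GRCm38.

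Computation used Python 3.11.15, numpy 2.4.6, pandas 2.3.3, scipy 1.17.1, matplotlib 3.10.9, R 4.3.3 and edgeR 4.0.16 (TMM alternative). The genes and lists were chosen with earlier results of these data known. Named genes were the 10, the highest and lowest by translational efficiency and the most abundant of each list, Cul3, Rbx1, Mafg, Mafk, Bach1, Txnrd1, Slc7a11, the 3 nearest Nfe2l2, Hras and Tgfbr2. Also named were Gsk3b and Pgd, which lay close to a limit. Maff, G6pd2 and the genes under Other observations were named after their values were seen. No test was made, because the count files used here hold 1 condition and 1 footprint library; further SCC and wild-type libraries of the study were not analysed here. Alternatives left out a replicate or changed the pseudocount, filter, length division, RNA region or scaling. The script was tested on counts simulated around the real ones: of 200 changed genes, 99% were recovered within 0.5 on the log2 scale. This share checks the calculation only. It is not the accuracy of the values given here, least of all for genes with few footprints such as Nqo1 and Srxn1. Long-read samples were not analysed here.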

Additional observations from a re-analysis of the deposited data

How the results depend on the processing

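Txn1 and Prdx1 stayed above 1, and Gclc and Gclm below -1, under every alternative that gave them a value. Of the other 6 genes, Keap1, Hmox1 and G6pdx kept their side of both limits in all 11 alternatives, Nfe2l2 in 10 of 11, and Nqo1 and Srxn1 in 9 of 10. Without 1 of the RNA-seq replicates the median of the 10 ran from -0.26 to -0.11. With RNA-seq counted over the CDS it was -0.0093; the cause was not tested. With at least 80% of the annotated CDS required, 1 gene was above 1, because Prdx1 is left out by that requirement. Requiring 100 counts in every library removed Nqo1 and Srxn1 and raised the reference median of all genes by 0.39 on the log2 scale, which lowered every remaining gene and put Nfe2l2 at -1.09. DESeq2 and TMM scaling cannot test these values, since centring on the median cancels a library factor except in the weighting of the replicates. As alternatives chosen after seeing the data, each RNA-seq replicate was left out for the wider lists: regulators below -1 then numbered 0 to 1, NADPH genes above 1 numbered 1 to 2, and superoxide and catalase genes above 1 numbered 1 to 2. Folds between genes over the CDS, and the range without Txn1 and Prdx1, were also added then. Among the 10, no gene past 1 or -1 in the main analysis changed sign under an alternative that gave it a value. Srxn1, which lay between these limits in the main analysis, ran from -1.78 to 0.48. No paired analysis was possible because the count files used here hold 1 condition, with a single footprint library. Depth limits Nqo1 (16.9 footprints) and Srxn1 (40.6 footprints) most, and the error of the footprint side includes no replicate.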

Other observations

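Relatives of the 10 genes, chosen after their values were seen, were measured in the same libraries. Hmox2, the constitutive haem oxygenase, had 52.9 and 54.3 RPKM of RNA, above Hmox1 in each replicate, and a log2 translational efficiency of -0.04 ± 0.04. Nqo2 had 2.02 and 1.96 RPKM, below Nqo1, with 18.8 footprints, about as many as the 16.9 of Nqo1. Nfe2l3, a relative of Nfe2l2, had 0.893 and 0.870 RPKM and did not pass the filter.

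Txnip, which encodes an inhibitor that binds thioredoxin, had 726 and 742 RPKM of RNA, above Txn1 in both replicates. Its 330 footprints gave 78.0 RPKM (69.8 to 86.9), far below the 1790 RPKM of Txn1. Its log2 translational efficiency was -3.58 ± 0.03, at percentile 1.37 of passing genes, where Txn1 stood at percentile 96.8. The order of thioredoxin and its inhibitor thus differed between RNA and footprints. Txnrd3, a testis-enriched thioredoxin reductase, had 8.05 and 8.12 RPKM of RNA, below Txnrd1, and a translational efficiency of -0.25 ± 0.02.

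Prdx4, the peroxiredoxin of the secretory pathway, did not pass the filter, with 6.82 and 6.40 RNA-seq counts and yet 44.9 footprints on its CDS. It was the gene of the wider lists with more footprints than RNA-seq counts in both replicates.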
